A study of Mus musculus with 13 samples.

Results

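The genes Pparg, Bhlhe40, Bhlhe41, Cebpa, Cebpb, Spi1, Maf and Batf3 encode transcription factors tied to the identity of alveolar macrophages, the phagocytes that live in the airspaces of the lung. They were taken by symbol from a list of 8 macrophage lineage regulators and not by a threshold on measured values, and each matched 1 Ensembl gene among the 43430 counted. The list was chosen with earlier results of these data known, so its counts are no unbiased sample of genes. All 8 passed the filter on low counts, which left 11906 genes for testing.

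The cells were alveolar macrophages sorted by flow cytometry from male C57Bl/6 mice aged 10 weeks, and no transgene or deleted allele is named in the labels. Metformin, a biguanide used against type 2 diabetes, was dosed through the drinking water (100 mg/kg/day), starting 24 h ahead of an intratracheal instillation, and other mice had vehicle. Mice were instilled with a reference particulate matter (PM, 10 µg) or with phosphate-buffered saline (PBS), and the lungs were harvested after a further 24 h. The groups were metformin with PM (metformin PM, n = 3), vehicle with PM (vehicle PM, n = 3), metformin with PBS (metformin PBS, n = 3) and vehicle with PBS (vehicle PBS, n = 4), each library from 1 biological replicate. The series is about metformin and the thrombosis that follows polluted air. The comparisons here ask what PM did to these genes with and without the drug, and what the drug did with and without PM.

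PPARγ (from Pparg) is a nuclear receptor that GM-CSF and TGF-β induce as fetal monocytes become alveolar macrophages in the mouse, and it drives lipid handling genes. PU.1 (from Spi1), an ETS factor, and the bZIP factors C/EBPα and C/EBPβ set up the myeloid enhancers on which it works. BHLHE40 and BHLHE41 are related bHLH repressors that bind E-box sites and act together in mouse alveolar macrophages, MAF restrains macrophage self-renewal, and BATF3 is best known for its need in a class of mouse dendritic cells.

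Libraries held 6.515 to 8.101 M counts with metformin PM, 6.182 to 7.107 with vehicle PM, 6.17 to 6.434 with metformin PBS and 5.567 to 6.362 with vehicle PBS. Levels are given as CPM, the count of a gene over the library total scaled by the trimmed mean of M values. The 15 alveolar macrophage markers, such as Siglecf, Marco and Chil3, were all tested, and their summed level per library was 31400 to 34300 CPM with metformin PM, 28900 to 31400 with vehicle PM, 27700 to 30600 with metformin PBS and 28800 to 33800 with vehicle PBS. Chil3, a secreted lectin gene, was the largest part of that sum, averaging 17300 CPM with metformin PM, 15100 with vehicle PM, 14700 with metformin PBS and 17100 with vehicle PBS. Siglecf averaged 514, 492, 599 and 566 CPM in the same groups, so the defining markers were present in each, but their levels were not constant. PM called (adjusted p under 0.05) 6 of the 15 higher and 3 lower in metformin mice, against 7.18% and 5.6% of all genes tested. In vehicle mice it called 4 higher and 5 lower, against 2.6% and 2.26% of all genes. That was 2 higher if vehicle PM 1 or 2 or vehicle PBS 4 was left out, and 3 lower without vehicle PM 1 or 3. Marco was lower with metformin in PBS mice by a log2 fold change of −1.11 ± 0.17 (edgeR adjusted p = 0.00245). The labels name no batch, and the running M numbers in the titles go through the groups one after the other, so that order and group cannot be told apart. The titles hold no replicate 2 of metformin PBS or metformin PM, and the M numbers also have a gap between vehicle PM and metformin PM.

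At baseline the factors covered a wide span. Levels between genes are given per kb of summed exon, as CPM per kb in vehicle PBS libraries (mean ± SD, n = 4). Cebpb led with 687 ± 67 CPM per kb, then Cebpa with 221 ± 14 and Spi1 with 170.0 ± 1.69. Bhlhe40 had 91.1 ± 5.18, Pparg 59.7 ± 7.28 and Bhlhe41 23.6 ± 2.15. The 6 named so far lay at or above percentile 82.2 of the tested genes on this scale. Batf3, with 4.03 ± 1.14 CPM per kb, stood at percentile 36.9, and Maf, with 0.158 ± 0.0453, stood at percentile 0.668, on only 4 to 12 counts in any library of the study.

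A gene is called changed when its adjusted p (edgeR quasi-likelihood test, Benjamini-Hochberg over the 11906 genes of a comparison) is under 0.05. With PM against PBS in vehicle mice, 1 of the 8 genes was higher and 0 lower, against 4.85% of all genes tested called, 2.6% higher and 2.26% lower. In metformin mice PM called 1 of 8 higher and 3 lower, against 12.8% of all genes, 7.18% higher and 5.6% lower. The drug called 1 of 8 higher and 0 lower in PBS mice, against 3.07% of all genes, 1.13% higher and 1.93% lower. In PM mice it called 0 of 8 higher and 3 lower, against 6.89% of all genes, 4.08% higher and 2.81% lower. The difference of the PM effects, metformin minus vehicle mice, was called positive for 0 and negative for 2 of the 8, against 1.44% of all genes, 0.89% positive and 0.546% negative. Groups did not overlap for 3 of the 8 in PM against PBS with vehicle (14.9% of all genes), 6 with metformin (30.0%), 2 in metformin against vehicle with PBS (13.7%) and 4 with PM (26.5%). Each of the 4 simple comparisons shares a group of libraries with 2 of the others, so their counts are not independent. Their median log2 fold changes over the 8 genes were −0.03, −0.10, −0.03 and −0.16 in that order, and −0.11 for the difference, where the medians of all genes lay between −0.00396 and 0.0062. Counts for the gene lists below are to be read beside these shares of all genes, and some lie near them.

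**Figure D1:**
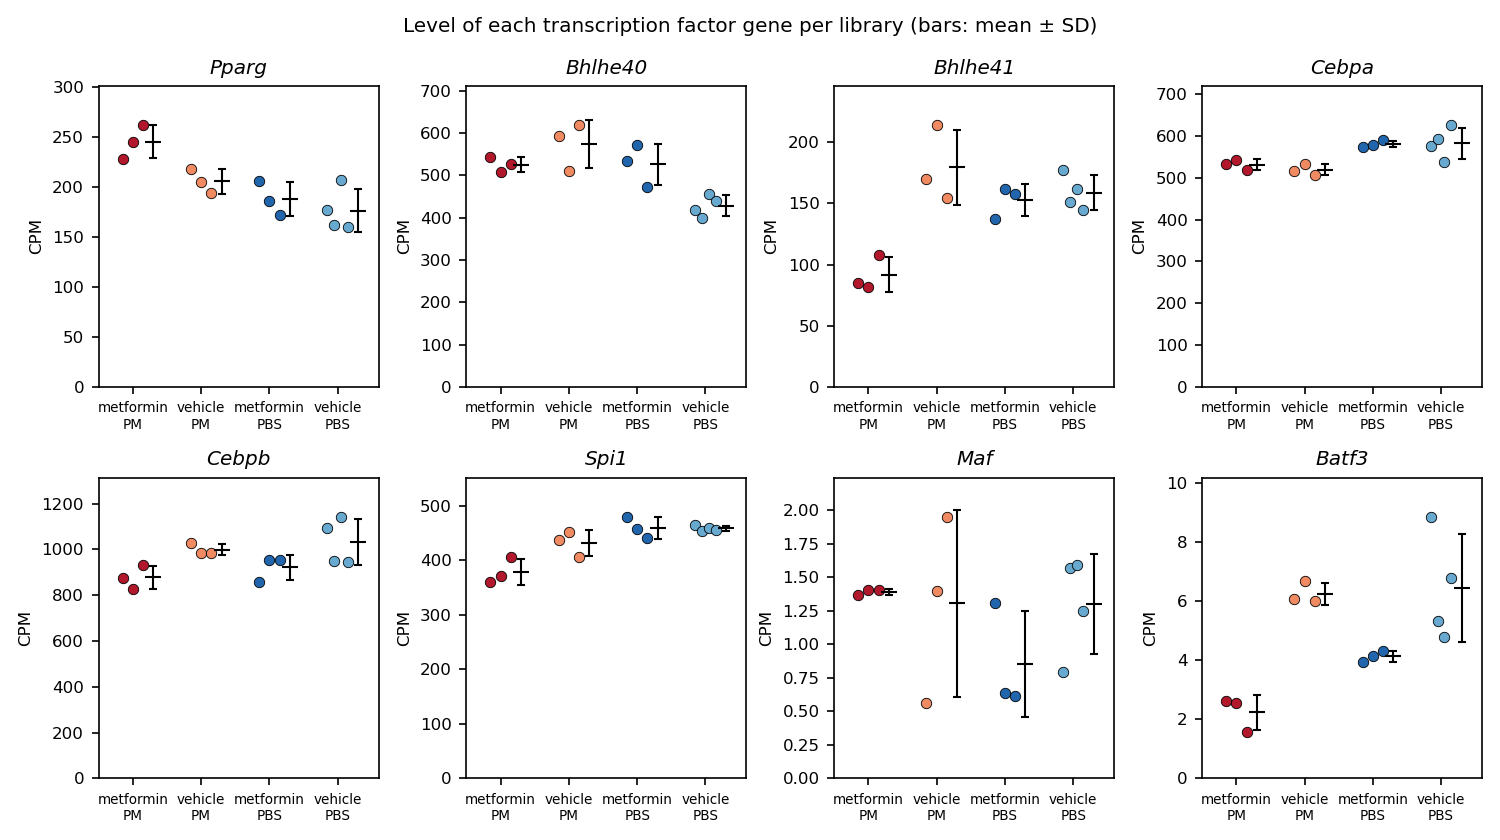
Level of each of the 8 genes in every library, in CPM on axes that start at 0, with points for libraries and bars for the mean ± SD of metformin PM, vehicle PM, metformin PBS and vehicle PBS. Bhlhe41 and Batf3 are lowest in the 3 metformin PM libraries, at 82.0 to 108 CPM and 1.56 to 2.61 CPM, with no overlap with any other group, while Pparg is highest in them, at 228 to 262 CPM, also without overlap with vehicle PM.

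Bhlhe41 RNA fell with metformin in PM mice and fell with PM in metformin mice, and neither change was called in the arm without the other agent. Bhlhe41 (ENSMUSG00000030256; mm10 chromosome 6, 145858243 to 145865558, minus strand) encodes BHLHE41, the repressor also known as DEC2, which dampens circadian clock transcription. Its level was 84.9, 82.0 and 108 CPM in the metformin PM libraries, against 170.2, 214 and 155 CPM in the vehicle PM libraries. It was 137.5, 162 and 158 CPM in the metformin PBS libraries and 178, 151.5, 162 and 144 CPM in the vehicle PBS libraries. Every metformin PM library lay below each of the other 10, and the ranges of the other groups overlapped where they were neighbours in the order of means.

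The means were 91.7 ± 14.3 CPM with metformin PM and 179.7 ± 30.7 CPM with vehicle PM (SD, n = 3 each), a log2 fold change of −0.98 ± 0.11 (SE; edgeR adjusted p = 3.2e-05), or 0.508-fold. By p this was number 17 of the 11906 genes in that comparison. Against metformin PBS, at 152.5 ± 13.2 CPM, metformin PM was lower by a log2 fold change of −0.74 ± 0.11 (edgeR adjusted p = 0.000233). In vehicle mice the PM effect was 0.18 ± 0.10 (edgeR adjusted p = 0.426), and in PBS mice the metformin effect was −0.06 ± 0.10 (edgeR adjusted p = 0.835). The PM effects themselves differed by −0.92 ± 0.15 on the log2 scale (edgeR adjusted p = 0.00444). All 3 calls stood when each of the 13 libraries was left out in turn, with the difference between −1.05 and −0.78.

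An E-box of the form CACGTG, the class of site that BHLHE proteins bind, lies before a RefSeq start of Bhlhe41 itself and of Batf3. Both genes had their lowest group mean with metformin PM, and so did Spi1 and Cebpb, for which no such site was found or no promoter was at hand. The stretch of Bhlhe41 lies outside the annotated gene, while that of Batf3 lies inside the gene span given with its values, before a RefSeq start that is downstream of the first annotated base. They are shown for the E-box, from RefSeq promoters on GRCm38.p6 (250 bases before a start), 5′ to 3′ on the strand of the gene, with the E-box in capitals. The first is chr6:145865559-145865670 on the minus strand, with the E-box beginning 153 bases before the RefSeq start. The second is chr1:191098164-191098193 on the plus strand, with the E-box beginning 247 bases before it. Of the 250 bases before each start, 138 for Bhlhe41 and 163 for Batf3 lie in annotated exons of the gene, so these windows are partly transcribed sequence.
Bhlhe41: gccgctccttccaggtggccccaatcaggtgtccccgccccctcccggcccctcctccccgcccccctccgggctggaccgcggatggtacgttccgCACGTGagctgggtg
Batf3: tgcCACGTGacttccacgaagagcgggggc
The table had promoters for 5 of the 8 genes, in 7 entries, and no entry for Bhlhe40, Spi1 or Maf. CACGTG, which reads the same on both strands, was not in these 250 bases of Cebpa, Cebpb or any of the 3 entries of Pparg, and 6.02% of all 32851 promoters and 8.47% of the 11472 of tested genes hold it. The letters TTGCNNAA, a form of the C/EBP site searched on both strands, occurred at 2 places in 1 Pparg entry, against 9.56% of all promoters and 7.63% of those of tested genes with at least 1. TGANTCA (AP-1, in 6.75% of all and 4.22% of tested genes' promoters) and GAGGAAGT (PU.1, in 2.44% and 2.66%) were in none of the 7 entries. A match describes letters in a window and shows no binding.

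Bhlhe40, the paralogue, went another way. Bhlhe40 (ENSMUSG00000030103; mm10 chromosome 6, 108660629 to 108666925, plus strand) encodes the repressor BHLHE40, or DEC1, and was measured at 542.5, 507 and 527 CPM in the metformin PM libraries and at 593, 510.2 and 619 CPM in the vehicle PM libraries. The metformin PBS libraries had 533, 571 and 474 CPM, and the vehicle PBS libraries 418, 400.5, 456 and 439 CPM. Each of the 4 vehicle PBS libraries lay below all 9 others, and the other 3 groups overlapped one another.

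PM raised Bhlhe40 in vehicle mice, to 574.1 ± 56.8 CPM with vehicle PM (n = 3), against 428.6 ± 24.4 CPM with vehicle PBS (SD, n = 4). The log2 fold change was 0.42 ± 0.07 (edgeR adjusted p = 0.000722) and was called with each library left out. In metformin mice the PM effect was −0.001 ± 0.07 (edgeR adjusted p = 0.994, 95% interval −0.146 to 0.143). The difference of −0.42 ± 0.10 was called (edgeR adjusted p = 0.0397). It was lost without vehicle PBS 1 or 2, metformin PBS 3, vehicle PM 1 or 3, or metformin PM 1, 3 or 4, where adjusted p reached 0.115 and the difference lay between −0.51 and −0.37. Metformin was followed by a rise of 0.30 ± 0.07 in PBS mice (edgeR adjusted p = 0.0219), lost without vehicle PBS 1 or 2 or metformin PBS 1 or 3 (highest adjusted p = 0.108). In PM mice the metformin effect was −0.13 ± 0.07 (edgeR adjusted p = 0.353). Its exons share 118 bases with 0610040F04Rik on the other strand, a gene with 5.47% as many counts, and a library that keeps no strand cannot assign reads there.

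Per kb, Bhlhe41 RNA stood to Bhlhe40 RNA in a ratio of 0.122 ± 0.0188 with metformin PM (0.11 to 0.144), 0.223 ± 0.0623 with vehicle PM (0.175 to 0.294), 0.204 ± 0.0268 with metformin PBS (0.181 to 0.233) and 0.26 ± 0.0285 with vehicle PBS (0.23 to 0.297; SD). The ratio of the metformin PM libraries did not reach that of any other library. Summed per kb, the pair had 125 ± 4.63 CPM per kb with metformin PM, 149 ± 7.51 with vehicle PM, 134 ± 10.7 with metformin PBS and 115 ± 5.50 with vehicle PBS, so Bhlhe40 made up most of the RNA of the pair in each group.

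**Figure D2:**
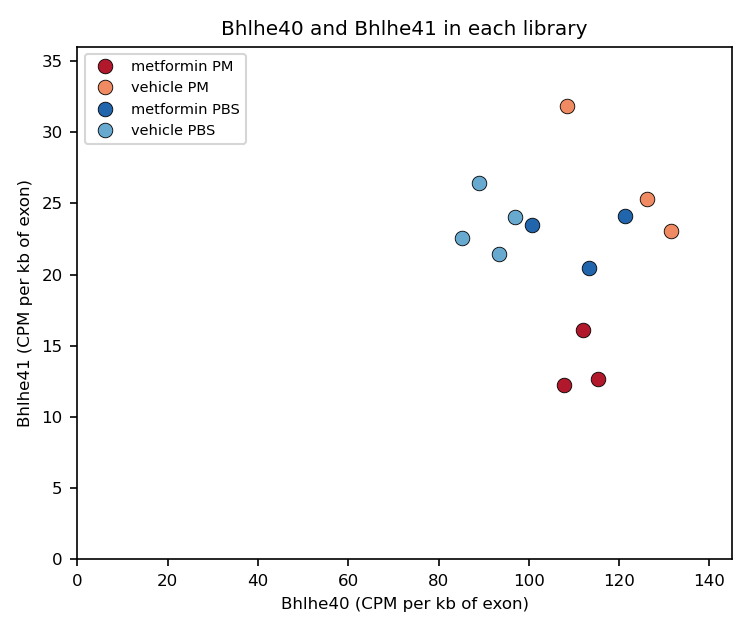
Bhlhe41 against Bhlhe40 in each of the 13 libraries, both axes in CPM per kb of exon and starting at 0, coloured by group. The metformin PM libraries overlap the vehicle PM and metformin PBS libraries on the Bhlhe40 axis but lie below all others on the Bhlhe41 axis, and the vehicle PBS libraries lie to the left of the rest.

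Clock genes were examined because both BHLHE proteins repress clock transcription. Of 19 listed, 15 were tested. In metformin PM against vehicle PM 3 were higher and 0 lower, against 4.08% and 2.81% of all genes, and 7 had an unadjusted p under 0.05. Per1, a negative arm component, averaged 293.5 ± 37.4 CPM with metformin PM and 200.3 ± 25.2 CPM with vehicle PM, a log2 fold change of 0.55 ± 0.10 (edgeR adjusted p = 0.00201). The number higher was 1 without vehicle PM 2 and 5 without metformin PBS 1, and 1 gene was lower without metformin PBS 1, vehicle PM 3 or metformin PM 1. Per1 was also the single clock gene whose PM effect differed between the arms, by 0.85 ± 0.14 (edgeR adjusted p = 0.00399), with none lower except for 1 without metformin PM 1. With PM, 3 clock genes were higher and 1 lower in metformin mice, with 2 lower without vehicle PBS 1 or 2, and 2 were higher and 0 lower in vehicle mice. Nr1d2, a repressor of Arntl, rose with PM in vehicle mice by 1.004 ± 0.12 (edgeR adjusted p = 2.27e-05). The count in vehicle mice was 1 without vehicle PBS 2 or 4 or vehicle PM 1, and 4 without vehicle PM 3.

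Batf3 fell with metformin in PM mice. Batf3 (ENSMUSG00000026630; mm10 chromosome 1, 191097847 to 191108945, plus strand) encodes a small bZIP partner of JUN and IRF proteins, and its counts were low. The metformin PM libraries had 21, 20 and 10 counts (2.61, 2.55 and 1.56 CPM), against 43, 43 and 37 counts (6.07, 6.69 and 6.01 CPM) in the vehicle PM libraries. The metformin PBS libraries had 24, 26 and 28 counts (3.93, 4.14 and 4.31 CPM), and the vehicle PBS libraries 56, 34, 30 and 38 counts (8.86, 5.33, 4.78 and 6.79 CPM). Each metformin PM library was below all others, and each metformin PBS library was between these and the vehicle libraries.

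The log2 fold change in metformin PM against vehicle PM was −1.45 ± 0.25 (edgeR adjusted p = 0.00134), or 0.366-fold, and was called with each library left out, between −1.57 and −1.27. In PBS mice the metformin effect on Batf3 was −0.64 ± 0.22 (edgeR adjusted p = 0.128), although the groups did not overlap. PM against PBS gave −0.85 ± 0.28 in metformin mice (edgeR adjusted p = 0.0476), a call that stood only without vehicle PBS 1 or vehicle PBS 3 and was lost without any other library (highest adjusted p = 0.157), with DESeq2 (adjusted p = 0.0722) and with limma-voom (adjusted p = 0.0543). PM gave −0.04 ± 0.20 in vehicle mice (edgeR adjusted p = 0.950), and the difference of −0.81 ± 0.34 was not called (edgeR adjusted p = 0.336).

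Since BATF3 marks dendritic cells, markers of those and of other cells were read beside it. In sorted bulk cells, fewer cells of a type and less RNA per cell cannot be told apart. Of 9 dendritic cell markers, 3 were tested (Clec9a, Irf8 and Naaa) and 0 were called in metformin PM against vehicle PM, with 1 at an unadjusted p under 0.05 and 0 called by DESeq2 or limma-voom. Their summed level was 717 to 734 CPM with metformin PM, 742 to 795 with vehicle PM, 734 to 758 with metformin PBS and 656 to 667 with vehicle PBS, nearly all from Naaa and Irf8. The markers Xcr1, Flt3, Zbtb46 and Ccr7 averaged 0.504, 0.479, 0.821 and 0.0827 CPM with metformin PM, and 0.758, 0.709, 0.825 and 0.299 CPM with vehicle PM. Clec9a, Cd209a and Itgae averaged 5.31, 0.417 and 0.399 CPM with metformin PM, and 3.93, 0.309 and 0.320 CPM with vehicle PM, so the list had means on either side. The part of these cells in the Batf3 values was not tested. Monocyte markers summed to 486 to 598 CPM with metformin PM, 473 to 610 with vehicle PM, 514 to 599 with metformin PBS and 451 to 610 with vehicle PBS, mostly from Nr4a1, with Ly6c2 at 5 counts over all libraries and Fcnb at 0. Neutrophil markers summed to 34.6 to 42.3 CPM with metformin PM, 26.3 to 33.3 with vehicle PM, 40.4 to 46.2 with metformin PBS and 36.9 to 44.8 with vehicle PBS, with Retnlg and Camp at 0 in every library.

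Markers of other lung cells also moved with metformin in PM mice. Of 11 interstitial macrophage markers 4 were tested and 2 called higher, among them Lyve1 at 3.40 CPM with metformin PM and 1.08 CPM with vehicle PM. That count was 1 without vehicle PBS 2, metformin PM 1, metformin PM 4, or any one metformin PBS or vehicle PM library, and the list summed to 591 to 667 CPM with metformin PM, 547 to 569 with vehicle PM, 714 to 750 with metformin PBS and 637 to 715 with vehicle PBS, mostly from Selenop. Of 6 endothelial and stromal markers 3 were called higher, among them Col1a1 at 5.05 CPM with metformin PM and 1.48 CPM with vehicle PM. None was higher without vehicle PM 1, vehicle PM 2 or metformin PM 3, and 1 without metformin PM 4. The list summed to 155 to 175 CPM with metformin PM, 153 to 191 with vehicle PM, 124 to 127 with metformin PBS and 123 to 151 with vehicle PBS. Vwf made up most of that sum, averaging 138, 159, 113 and 121 CPM in these groups. Pecam1, Cdh5, Col1a1, Col1a2 and Col3a1 each averaged higher with metformin PM than with vehicle PM. Epithelial markers summed to 164 to 208, 130 to 172, 156 to 212 and 136 to 171 CPM in the same order of groups. Epcam made up most of these sums, averaging 104, 89.9, 140 and 114 CPM. With metformin in PM mice 0 of 5 tested were called, with 3 at an unadjusted p under 0.05, 0 by DESeq2 or limma-voom, and 2 higher without vehicle PM 3. Lymphocyte markers summed to 2.65 to 8.69, 2.6 to 8.24, 0.77 to 2.07 and 1.27 to 2.2 CPM. Igkc and Jchain made up most of that sum in both PM groups. They averaged 2.89 and 1.76 CPM with metformin PM, and 3.13 and 1.42 CPM with vehicle PM. Among the untested markers, Ms4a1, Cd79a, Cd79b and Nkg7 each averaged lower with PM than with PBS in both arms. Cd3e averaged higher and Cd3g differed by arm, and none of these untested markers exceeded 4 counts in a library. The 2 tested, Igkc and Jchain, were called higher with PM in both drinking-water arms. In metformin mice 1 was called without metformin PBS 4 or metformin PM 1, and in vehicle mice 0 if vehicle PM 1 or 2 or vehicle PBS 1 was left out, and 1 without vehicle PBS 2, 3 or 4, metformin PBS 4 or metformin PM 3. With PM in metformin mice, where Bhlhe41, Pparg and Spi1 were also called, 3 of 5 epithelial markers were higher and 1 lower, the lower one lost without metformin PBS 3, metformin PM 3 or metformin PM 4. Sftpc, a surfactant gene of the epithelium, rose there by 1.23 ± 0.27 (edgeR adjusted p = 0.00502). Of endothelial and stromal markers 4 of 6 were higher there with a median log2 fold change of 1.14, or 2 without metformin PBS 1, metformin PBS 4, metformin PM 3 or metformin PM 4 and 1 without metformin PBS 3. Of interstitial macrophage markers 2 of 4 were higher, Lyve1 and Stab1, and 1 lower. Those higher were 1 without metformin PBS 1, vehicle PM 2 or metformin PM 1 and 0 without metformin PBS 3, metformin PBS 4, metformin PM 3 or metformin PM 4, and 0 were lower without metformin PM 3. The part of these cells in the changes of the 8 factors was not tested.

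Pparg was higher with PM in metformin mice. Pparg (ENSMUSG00000000440; mm10 chromosome 6, 115361221 to 115490401, plus strand) had 228, 245.5 and 262 CPM in the metformin PM libraries, against 218, 204.5 and 194 CPM in the vehicle PM libraries. It had 206, 186 and 172 CPM in the metformin PBS libraries and 177, 161.5, 206.5 and 160.2 CPM in the vehicle PBS libraries. All 3 metformin PM libraries lay above the other 10, which overlapped from group to group.

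Its mean was 245.2 ± 16.7 CPM with metformin PM and 187.8 ± 17.0 CPM with metformin PBS (SD, n = 3 each), a log2 fold change of 0.38 ± 0.09 (edgeR adjusted p = 0.00549) that was called with each library left out. In vehicle mice, at 205.5 ± 12.3 CPM with PM and 176.4 ± 21.5 CPM with PBS, PM gave 0.22 ± 0.08 (edgeR adjusted p = 0.150). That was called without vehicle PBS 3, the highest of its group, at 0.30, and with no filter (edgeR adjusted p = 0.0109). In PM mice the metformin effect was 0.25 ± 0.09 (edgeR adjusted p = 0.0826). It was called without vehicle PBS 3, with only the groups compared (edgeR adjusted p = 0.0201) and with no filter (edgeR adjusted p = 0.00673). In PBS mice the metformin effect was 0.09 ± 0.08 (edgeR adjusted p = 0.623). The difference of the PM effects was 0.16 ± 0.12 (edgeR adjusted p = 0.646, 95% interval −0.07 to 0.40).

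Upstream of Pparg stand GM-CSF and TGF-β, and 15 of 18 genes listed for them were tested. With PM, 4 were higher and 4 lower in metformin mice, against 7.18% and 5.6% of all genes. In vehicle mice 3 were higher and 0 lower, against 2.6% and 2.26% of all genes. Csf2rb2, a GM-CSF receptor chain gene, rose with PM by 0.41 ± 0.06 in metformin mice (edgeR adjusted p = 0.000193) and by 0.35 ± 0.06 in vehicle mice (edgeR adjusted p = 0.000785). Cish, a STAT5 target that feeds back on cytokine receptors, rose by 0.73 ± 0.15 in metformin mice (edgeR adjusted p = 0.00294) and by 0.76 ± 0.15 in vehicle mice (edgeR adjusted p = 0.00405), though it overlaps other counted genes. Stat5a, a transducer of GM-CSF signals, and Tgfbr2, a TGF-β receptor, fell with PM in metformin mice by 0.47 ± 0.08 and 0.24 ± 0.05 on the log2 scale (edgeR adjusted p = 0.000462 and 0.00137). The drug called 2 higher and 3 lower in PM mice. That was 1 higher without any one of the 3 vehicle PM libraries, metformin PM 1 or metformin PM 3, and 1 lower without vehicle PM 2 and 0 lower without metformin PM 1.

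Downstream, all 22 PPAR and lipid genes listed were tested. In metformin mice PM called 5 higher and 1 lower, against 7.18% and 5.6% of all genes. Those counts were 3 higher without metformin PBS 3 or metformin PM 3 or 4, and 2 or 3 lower without vehicle PBS 3, metformin PBS 1, vehicle PM 2 or metformin PM 4. In vehicle mice PM called 2 higher and 4 lower, against 2.6% and 2.26% of all genes. Fabp4, a fatty acid carrier and direct PPARγ target, rose with PM by 0.45 ± 0.10 in metformin mice (edgeR adjusted p = 0.00407) and by 0.53 ± 0.09 in vehicle mice (edgeR adjusted p = 0.000793). Pdk4, which holds back glucose oxidation, fell in vehicle mice by 0.95 ± 0.17 on the log2 scale (edgeR adjusted p = 0.00167). In PM mice the drug called 1 higher, the lipid droplet gene Cidec by 0.33 ± 0.06 (edgeR adjusted p = 0.0016), and 1 lower, the lipase gene Lpl by −0.34 ± 0.06 (edgeR adjusted p = 0.00244). Those counts were 2 higher without metformin PBS 1 and 2 lower without vehicle PBS 3, vehicle PM 3 or any one metformin PBS library. Such counts of 1 in 22 lie near the shares of all genes in that comparison, 4.08% higher and 2.81% lower. For the difference of the PM effects 0 of 22 were called with edgeR, DESeq2 or limma-voom, 4 had an unadjusted p under 0.05, and 1 was called without metformin PBS 1.

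Among partners and coregulators of PPARγ, 13 of 15 were tested. Of these, 2 were higher and 2 lower with metformin in PM mice, against 4.08% and 2.81% of all genes. The number higher was 1 without vehicle PM 1, vehicle PM 3 or metformin PM 1. Ncoa1, a coactivator of nuclear receptors, averaged 184.6 ± 13.9 CPM with metformin PM and 113.1 ± 5.32 CPM with vehicle PM, a log2 fold change of 0.70 ± 0.07 (edgeR adjusted p = 1.68e-05). Its PM effects differed between the arms by 0.50 ± 0.10 (edgeR adjusted p = 0.011). Ppargc1b, also a coactivator, fell by 0.80 ± 0.17 on the log2 scale (edgeR adjusted p = 0.00611). In vehicle mice PM called 0 of 13 with edgeR, DESeq2 or limma-voom, and 1 had an unadjusted p under 0.05.

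Spi1 was lower with PM in metformin mice. Spi1 (ENSMUSG00000002111; mm10 chromosome 2, 91082390 to 91115756, plus strand) had 359, 370.3 and 405 CPM in the metformin PM libraries and 436, 452 and 405 CPM in the vehicle PM libraries. It had 479.5, 457 and 440 CPM in the metformin PBS libraries and 464, 454, 458.5 and 456 CPM in the vehicle PBS libraries. The vehicle PBS libraries lay closest together, and all metformin PM libraries lay below both PBS groups while touching the range of vehicle PM.

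PM against PBS in metformin mice gave a log2 fold change of −0.28 ± 0.06 (edgeR adjusted p = 0.00255), or 0.824-fold, called with each library left out. In vehicle mice it was −0.09 ± 0.05 (edgeR adjusted p = 0.450), although the groups did not overlap, and the difference of −0.19 ± 0.08 was not called (edgeR adjusted p = 0.311). Metformin against vehicle in PM mice gave −0.19 ± 0.06 (edgeR adjusted p = 0.0491), and that call stood only without metformin PBS 1, vehicle PM 3 or metformin PM 4. Without any other library it was lost, with the highest adjusted p at 0.205, and it was lost in a fit of only the groups compared (adjusted p = 0.0605). In PBS mice the metformin effect was 0.002 ± 0.05 (edgeR adjusted p = 0.993, 95% interval −0.10 to 0.10).

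All 19 listed receptors and enzymes that PU.1 is known to drive were tested. With metformin in PM mice, where Spi1 was lower, the test called 2 higher and 0 lower, against 4.08% and 2.81% of all genes. The number higher was 1 without vehicle PM 1, vehicle PM 3 or metformin PM 4. Tlr4, the endotoxin receptor gene, was higher by 0.42 ± 0.09 (edgeR adjusted p = 0.00515). PM called 4 higher and 4 lower in metformin mice, or 2 higher without metformin PBS 4, vehicle PM 1, vehicle PM 3 or any one metformin PM library, and 4 higher and 1 lower in vehicle mice. The 1 lower gene there, Adgre1, lost its call without vehicle PBS 2, 3 or 4, metformin PBS 4, any one vehicle PM library, or metformin PM 1 or 3. Itgam, an integrin gene that is also a monocyte marker, rose with PM by 1.67 ± 0.20 in metformin mice (edgeR adjusted p = 1.17e-05) and by 1.36 ± 0.17 in vehicle mice (edgeR adjusted p = 5.01e-05). Fcgr1, an antibody receptor gene, fell with PM in metformin mice by 0.67 ± 0.08 on the log2 scale (edgeR adjusted p = 2.57e-05).

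**Figure D3:**
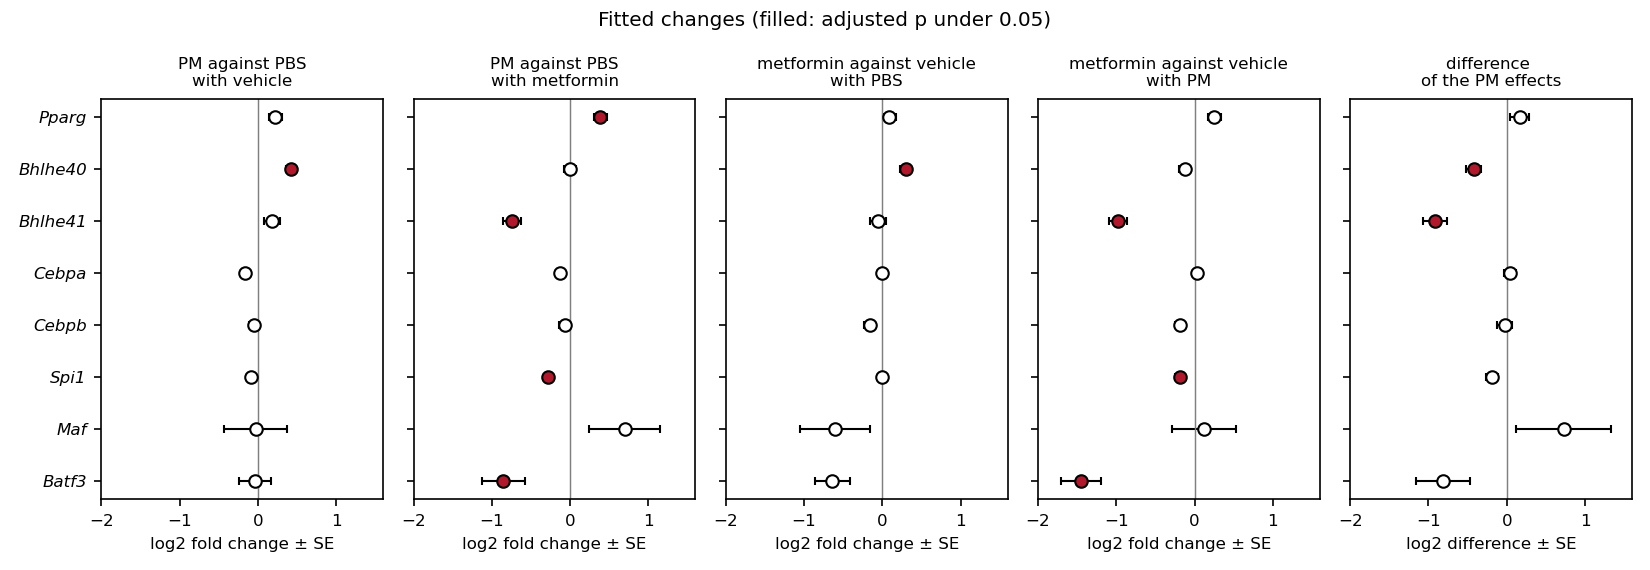
Fitted change of each of the 8 genes, as log2 fold change ± SE, in PM against PBS with vehicle, PM against PBS with metformin, metformin against vehicle with PBS and metformin against vehicle with PM, and the log2 difference of the PM effects. Filled points have an adjusted p under 0.05. Bhlhe41 and Batf3 lie furthest below 0 in metformin against vehicle with PM, at −0.98 and −1.45, and Maf has the widest errors.

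Cebpa and Cebpb, the most abundant of the 8 factors per kb, were called in none of the 4 simple comparisons in the main fit. Cebpa (ENSMUSG00000034957; mm10 chromosome 7, 35119293 to 35121926, plus strand) ranged over 519 to 543 CPM with metformin PM, 507 to 534 with vehicle PM, 574 to 589 with metformin PBS and 537 to 626 with vehicle PBS. Each PM group lay below the PBS group of its own drinking-water arm without overlap, while metformin PM overlapped vehicle PBS. PM against PBS gave −0.13 ± 0.05 in metformin mice (edgeR adjusted p = 0.136) and −0.17 ± 0.05 in vehicle mice (edgeR adjusted p = 0.0677). In vehicle mice it was called without vehicle PBS 3 (−0.20), with upper quartile scaling (−0.17), with library totals alone (−0.18) and with a stricter filter (−0.17).

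Cebpb (ENSMUSG00000056501; mm10 chromosome 2, 167688915 to 167690418, plus strand) ranged over 829 to 931 CPM with metformin PM, 983 to 1028 with vehicle PM, 860 to 954 with metformin PBS and 946 to 1143 with vehicle PBS. Metformin against vehicle gave −0.19 ± 0.07 in PM mice (edgeR adjusted p = 0.122), where the groups did not overlap, and −0.16 ± 0.07 in PBS mice (edgeR adjusted p = 0.190), where they did. The effect in PM mice was called with only the groups compared (edgeR adjusted p = 0.0403) and with no filter (edgeR adjusted p = 0.0162). PM gave −0.07 ± 0.07 in metformin mice and −0.05 ± 0.07 in vehicle mice (edgeR adjusted p = 0.578 and 0.793). Of its 1504 exon bases, 312 are shared with Tmem189 on the other strand, a gene with 49.7% as many counts, so its level is uncertain. Per kb, Cebpa stood to Cebpb in a ratio of 0.347 ± 0.0279 with metformin PM, 0.297 ± 0.0113 with vehicle PM, 0.36 ± 0.0187 with metformin PBS and 0.326 ± 0.0502 with vehicle PBS.

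Of 23 other C/EBP and bZIP genes 21 were tested, among them the AP-1 subunits that pair with BATF3. The drug in PM mice called 3 higher and 3 lower, against 4.08% and 2.81% of all genes, or 1 higher without vehicle PM 2, metformin PM 1 or metformin PM 3. Fos averaged 2212 ± 240.0 CPM with metformin PM and 3185 ± 61.3 CPM with vehicle PM, a log2 fold change of −0.53 ± 0.11 (edgeR adjusted p = 0.00422). Jun, which overlaps Junos, averaged 455.4 ± 9.52 CPM with metformin PM and 746 ± 183 CPM with vehicle PM, a log2 fold change of −0.71 ± 0.15 (edgeR adjusted p = 0.00569). The PM effects differed for Fos by −0.81 ± 0.14, for Jun by −1.06 ± 0.20 and for Junb by −0.61 ± 0.13 (edgeR adjusted p = 0.00607, 0.00892 and 0.0178), and the call of Junb was lost without vehicle PM 1. In metformin mice PM called 0 higher and 2 lower, against 7.18% and 5.6% of all genes, or 1 lower without metformin PBS 1 or metformin PM 1. In vehicle mice it called 2 higher and 1 lower, or 4 higher without vehicle PBS 3 or metformin PBS 1. The 1 lower, Atf3, stood only without vehicle PBS 4, metformin PBS 1, metformin PBS 3 or metformin PM 1.

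Maf was at the limit of detection. Maf (ENSMUSG00000055435; mm10 chromosome 8, 115682942 to 115707794, minus strand) had 11, 11 and 9 counts in the metformin PM libraries, against 4, 9 and 12 in the vehicle PM libraries. It had 8, 4 and 4 counts in the metformin PBS libraries and 5, 10, 10 and 7 in the vehicle PBS libraries. No comparison called it, and the intervals were wide, at −0.68 to 0.92 on the log2 scale for metformin against vehicle in PM mice and −0.19 to 1.59 for PM against PBS in metformin mice. Changes within these intervals were not excluded, and the power for Maf was not estimated. For PM in metformin mice the groups did not overlap in CPM, on these few counts, as for 30.0% of all genes.

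MAF is known to hold back division of macrophages, and all 23 cell division genes listed were tested. In metformin mice PM called 18 higher and 0 lower, or 10 higher without metformin PM 3, with a median log2 fold change of 0.63 over the list. Metformin against vehicle in PBS mice called 0 higher and 17 lower, or 11 lower without metformin PBS 4, with a median of −0.75. Both comparisons use the metformin PBS libraries. Of those that do not, metformin against vehicle in PM mice called 0 higher and 3 lower, with a median of −0.22 and 7 at an unadjusted p under 0.05, or 1 lower without vehicle PM 2, vehicle PM 3 or metformin PM 4 and 5 lower without vehicle PBS 1 or 4. PM against PBS in vehicle mice called 1 higher and 0 lower, with a median of 0.17. That was 6 higher without vehicle PBS 1, and 0 without vehicle PBS 2, 3 or 4 or any one vehicle PM library. Metformin PM against vehicle PBS called 0 higher and 1 lower, with a median of −0.10, or 0 lower without vehicle PBS 1, metformin PBS 4 or any one metformin PM library, 2 lower without metformin PBS 1, vehicle PM 1 or vehicle PM 2, 3 lower without vehicle PBS 4, and 1 higher without vehicle PBS 1.

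Of 36 other macrophage and myeloid transcription factors 30 were tested, as a setting for the 8. With metformin in PM mice 2 were higher and 4 lower, against 4.08% and 2.81% of all genes. Ets2, an ETS factor, averaged 320.4 ± 32.0 CPM with metformin PM and 197.3 ± 23.7 CPM with vehicle PM, a log2 fold change of 0.70 ± 0.08 (edgeR adjusted p = 3.83e-05). Tfeb, a regulator of lysosome genes, averaged 48.3 ± 1.16 CPM with metformin PM and 74.9 ± 5.90 CPM with vehicle PM, a log2 fold change of −0.63 ± 0.07 (edgeR adjusted p = 3.2e-05). The difference of the PM effects was called positive for 1 (Ets2, 0.88 ± 0.12, edgeR adjusted p = 0.000842) and negative for 4, or 2 without vehicle PBS 2, vehicle PM 1, vehicle PM 2, metformin PM 3 or metformin PM 4. PM against PBS called 4 higher and 6 lower in metformin mice and 5 higher and 2 lower in vehicle mice, where the immediate early gene Egr1 rose by 1.43 ± 0.21 (edgeR adjusted p = 0.000245). Runx2, a Runt family factor, fell in both, by 0.50 ± 0.08 on the log2 scale in metformin mice and 0.47 ± 0.07 in vehicle mice (edgeR adjusted p = 0.000287 and 0.000504).

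Apart from the cell division genes, metformin in PBS mice called at most 2 genes of any related list, against 1.13% of all genes higher and 1.93% lower. Of GM-CSF and TGF-β genes 0 were called with edgeR, DESeq2 or limma-voom and 7 had an unadjusted p under 0.05, with 1 called without vehicle PBS 4 or vehicle PM 2. Of PPARγ partners 0 were called with edgeR and limma-voom and 1 with DESeq2, 5 had an unadjusted p under 0.05, 2 were higher without vehicle PBS 3 or metformin PBS 1, and 1 without vehicle PBS 4, metformin PBS 3, metformin PM 1 or metformin PM 4. Among PPAR and lipid genes 2 were lower, or 1 without metformin PBS 3 or 4. Among C/EBP and bZIP genes 1 was higher, or 6 without vehicle PBS 3, 2 without metformin PBS 3 and 0 without metformin PBS 4. Among other transcription factors 2 were higher, or 0 without vehicle PBS 1, vehicle PBS 2, metformin PBS 3 or metformin PBS 4, and 1 without vehicle PBS 3 or metformin PBS 1. Among PU.1 targets 1 was higher, or 0 without vehicle PBS 1, 2 or 3 or metformin PBS 1 or 4, 2 without vehicle PM 2 and 3 without vehicle PBS 4. Among clock genes 2 were higher, or 0 without vehicle PBS 1 or metformin PBS 4, and 1 without vehicle PBS 2, vehicle PBS 4, metformin PBS 1 or metformin PBS 3. Lpl, lower by 0.31 ± 0.06 on the log2 scale (edgeR adjusted p = 0.00684), was called with each library left out.

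**Figure D4:**
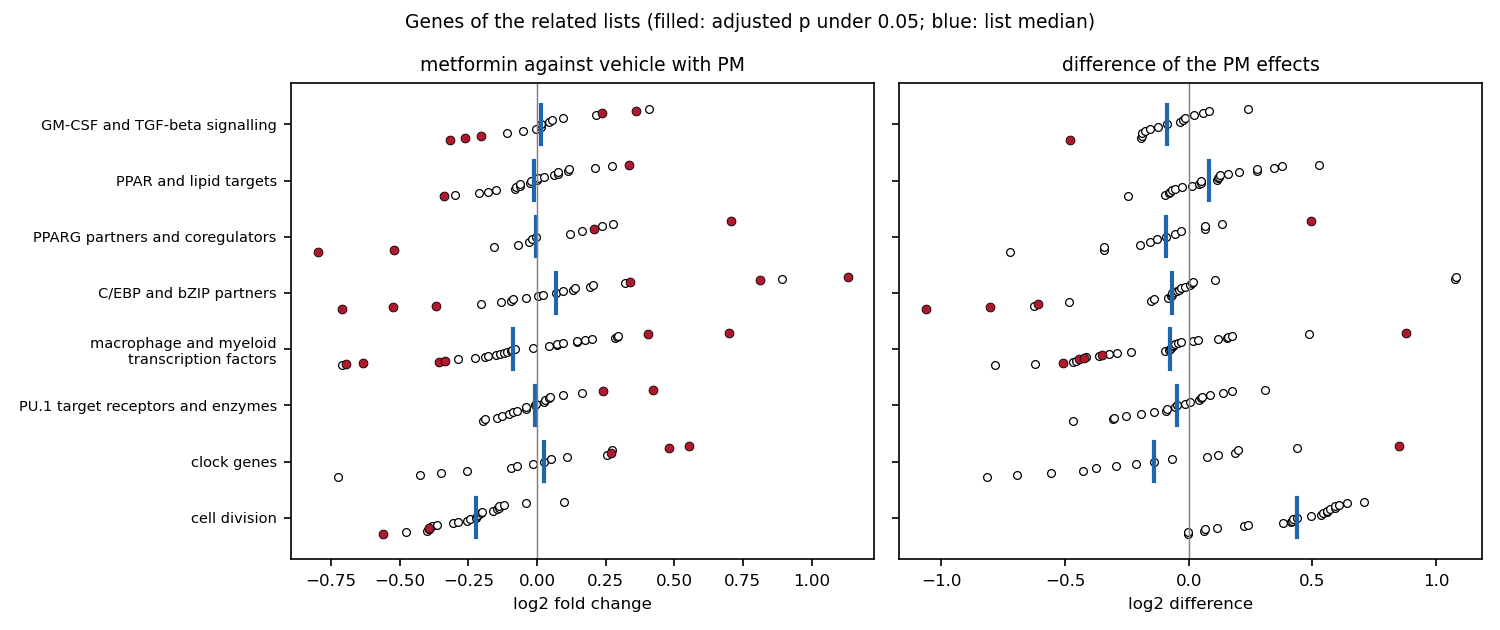
Log2 fold change in metformin against vehicle with PM (left) and log2 difference of the PM effects (right) for every tested gene of the 8 related lists, with filled points for an adjusted p under 0.05 and a blue line at the median of each list. List medians lie near 0 for most lists, while single genes such as Ets2, Jun and Tfeb lie away from it.

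With both agents against neither, metformin PM against vehicle PBS, 6 of the 8 were called, 2 higher and 4 lower, against 15.5% of all genes, 8.22% higher and 7.26% lower, and the groups did not overlap for 6 of the 8, against 25.6%. This comparison shares vehicle PBS and metformin PM libraries with the others and is no separate evidence. The log2 fold changes were 0.47 ± 0.08 for Pparg, 0.29 ± 0.07 for Bhlhe40, −0.80 ± 0.11 for Bhlhe41, −0.23 ± 0.07 for Cebpb, −0.28 ± 0.05 for Spi1 and −1.49 ± 0.24 for Batf3 (edgeR adjusted p = 0.00034, 0.00576, 3.24e-05, 0.0189, 0.00107 and 0.000204). The call of Cebpb was lost without vehicle PBS 1 or 3 or metformin PM 1 or 3, with the highest adjusted p at 0.0998. Cebpa, at −0.13 ± 0.05 (edgeR adjusted p = 0.0881), was called without vehicle PBS 3, and Maf, at 0.09 ± 0.39, was not called (edgeR adjusted p = 0.911).

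**Figure D5:**
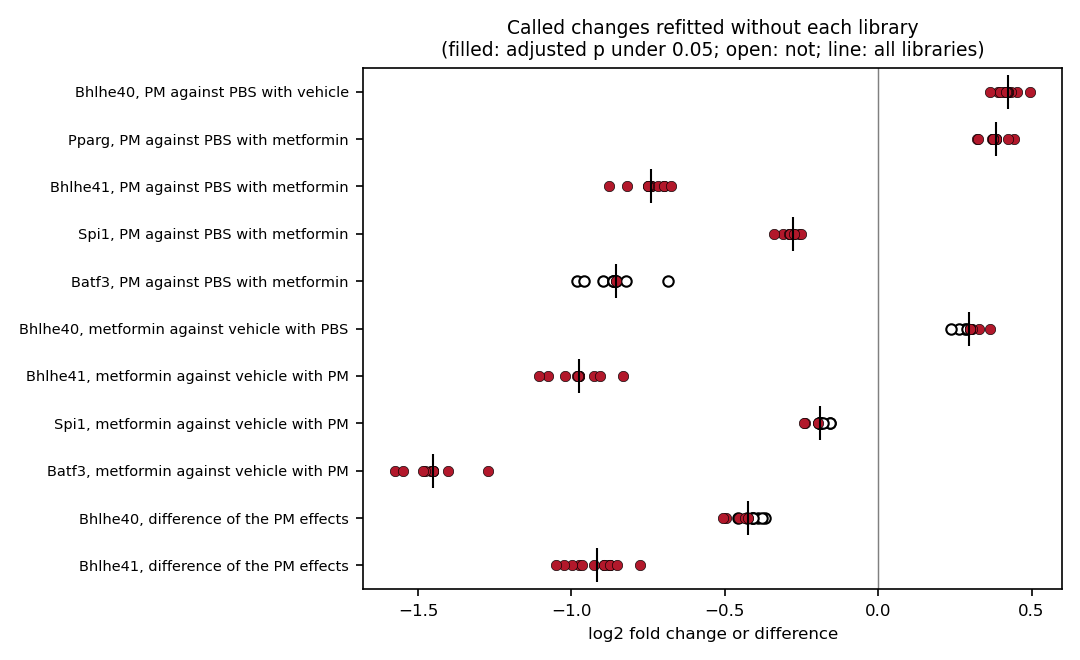
Log2 fold change, or difference, for each call among the 8 genes in the simple comparisons and the difference of the PM effects, refitted without each of the 13 libraries in turn. Filled points have an adjusted p under 0.05, open points do not, and the vertical line is the value with all libraries. Bhlhe41 stays called in its 3 comparisons. Spi1 in metformin against vehicle with PM, Batf3 in PM against PBS with metformin and Bhlhe40 in the difference of the PM effects are mostly open.

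The genes whose levels ran closest to each factor over the 13 libraries were found by the root mean square difference of standardised log2 CPM, in SD units, among 9250 candidates with a mean of at least 5 CPM, where the median gene lay at 1.40 to 1.43. For Bhlhe41 they were Cln8 (0.347), Srsf9 (0.355) and Rufy4 (0.359), for Batf3 Rapgef1 (0.323), Gtpbp8 (0.345) and Mtdh (0.348), and for Spi1 Syngr2 (0.346), Fbxl14 (0.361) and Il17ra (0.373). For Pparg they were Tns2 (0.373), Dab2 (0.398) and Sav1 (0.408), and for Bhlhe40 Areg (0.386), Pim1 (0.472) and Slc8b1 (0.533). For Cebpa they were Pigs (0.457), Clip2 (0.462) and Tsc22d1 (0.478), and for Cebpb Tmem189 (0.394), whose exons overlap it, Lonrf3 (0.497) and Setd3 (0.52). Maf had no close gene, the nearest being Dnajc4 at 0.654. Among the 8 factors the nearest pairs were Bhlhe41 with Spi1 (0.615) and with Batf3 (0.636), while Bhlhe40 and Bhlhe41 stood 1.51 apart. These are descriptions over libraries that share groups, with no test.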

How the data were processed

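Polyadenylated RNA of sorted cells was made into NEBNext Ultra I libraries and read as 75 bp single ends. Per the submitters' processing notes, the authors used bcl2fastq 2.19, TopHat2, HTSeq, edgeR and mm10. Per the file headers, the deposited values are a raw count per gene in each of 13 libraries, beside Start, End and Length columns of another unit. Annotation release and strand setting are not given in the sources used here. Strand is not kept by this kit, which leaves uncertain the counts of named genes whose exons overlap a counted gene on the other strand: Bhlhe40, Cebpb, Maf, Cish, Stat5a, Jun, Junb, Runx2, Selenop and Stab1. Clec9a shares exon bases with Clec1b on its own strand and is uncertain for that reason.

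Counts were tested with edgeR 4.0.16 (R 4.3.3): filterByExpr (minimum count 10), TMM factors, 1 coefficient per group and a quasi-likelihood fit with 9 residual degrees of freedom and a common biological coefficient of variation of 0.0635. Genes with a Benjamini-Hochberg adjusted p under 0.05 are called. The SE is the log2 fold change over the root of F. Exon lengths came from GENCODE M21 (42462 of 43430 IDs matched, also for symbols), because the authors' Length exceeded the gene span for 1982 genes. Replicates differed by more than counting noise (chi-square per degree of freedom 2.14 to 6.74 over 15 pairs). The p-values judge a group difference against the spread between libraries, which the fit estimates in part by pooling genes.

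The 8 genes and the lists were chosen with earlier results of these data known. Named genes are the 8, at most 4 tested genes a list, by lowest adjusted p in each comparison, and the 3 genes most like each of the 8; not all are printed, and Adgre1, the lone lower gene of its list, and Id2 were named after their values were seen. Alternatives were DESeq2 1.42.0, limma-voom (limma 3.58.1), other scalings and filters (5 CPM in 3 libraries), a fit of only the groups compared, a replicate term and leaving out each library. On simulated counts for 11906 genes, the fit called 39 of 67 genes changed 1.5-fold and 60 of 67 changed 2-fold in metformin against vehicle with PM, and 34 of 67 and 52 of 67 for the difference of the PM effects. The simulation used the trend of spread on level with no spread particular to a gene. It pooled genes of all levels, so it does not give the power for genes of low count such as Batf3 and Maf. Figures used Python 3.11.15 and Matplotlib 3.10.9.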

Additional observations from a re-analysis of the deposited data

Results flagged for a closer look

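The PM effect, taken as a log2 fold change of PM against PBS, differed between metformin and vehicle mice by the test of the difference itself for 2 of the 8 factors. The difference, metformin minus vehicle, was −0.92 for Bhlhe41 and −0.42 for Bhlhe40. Among the genes of related lists it was −0.48 for Stat5a, 0.50 for Ncoa1, −0.81 for Fos, −1.06 for Jun, −0.61 for Junb, 0.88 for Ets2, −0.51 for Tfeb, −0.44 for Klf4, −0.35 for Irf8, −0.42 for Id2 and 0.85 for Per1. Of these, Bhlhe41, Ncoa1, Fos, Jun, Ets2, Tfeb, Klf4 and Per1 were called with each of the 13 libraries left out. Bhlhe40 was lost in 8 of the 13 refits, without vehicle PBS 1 or 2, metformin PBS 3, vehicle PM 1 or 3, or any one metformin PM library. Stat5a was lost without vehicle PBS 2, metformin PBS 3, metformin PBS 4 or metformin PM 1, Junb without vehicle PM 1, Id2 without vehicle PBS 2, vehicle PBS 3, metformin PBS 1, metformin PBS 4, vehicle PM 1, vehicle PM 2, metformin PM 3 or metformin PM 4, and Irf8 without vehicle PBS 2, metformin PBS 4, vehicle PM 1, vehicle PM 2 or any one metformin PM library.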

How the results depend on the processing

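Of the log2 fold changes of the 8 genes, 392 kept direction and side of the threshold under other tests, scalings, filters and fits, 7 lost and 8 gained a call, and 6 turned sign. Those were all values near 0: Bhlhe40 for PM in metformin mice (0.00273 with limma-voom, 0.00171 with the replicate block), Cebpa for metformin in PBS mice (0.00124 with no filter, 0.000154 with the stricter filter, 0.00601 with the replicate block) and Spi1 there (−0.011 with upper quartile scaling). Leaving out 1 library left 552 the same, with 37 losing and 4 gaining a call and 19 turning sign. The ranges of those that turned were −0.0872 to 0.00437 for Cebpb, −0.425 to 0.354 for Maf and −0.16 to 0.16 for Batf3 (PM in vehicle mice), −0.0739 to 0.0552 for Bhlhe40 (PM in metformin mice), −0.102 to 0.0145 for Bhlhe41, −0.0415 to 0.0315 for Cebpa and −0.0265 to 0.0314 for Spi1 (metformin in PBS mice), −0.269 to 0.51 for Maf (metformin in PM mice), −0.0814 to 0.0167 for Cebpb (difference of the PM effects) and −0.0895 to 0.0988 for Maf (metformin PM against vehicle PBS). With PM in vehicle mice, 2 of the 8 were called under upper quartile scaling, library totals, no filter or the stricter filter. With metformin in PM mice, 5 were called with no filter. All genes called numbered 813 with no filter and 200 in a fit of only the groups compared for metformin in PBS mice, and 507 with no filter for the difference; the cause was not tested. With 1 library left out, 359 to 645 genes and 1 to 3 of the 8 were called for PM in vehicle mice (359 without vehicle PM 2), 884 to 1666 and 3 to 4 for PM in metformin mice (884 without metformin PM 3, 895 without metformin PBS 3, 964 without metformin PBS 4), 121 to 503 and 0 to 1 for metformin in PBS mice (121 without metformin PBS 4, 151 without vehicle PBS 1, 215 without vehicle PBS 2), 419 to 954 and 2 to 3 for metformin in PM mice (419 without vehicle PM 2, 431 without metformin PM 1), 113 to 262 and 1 to 2 for the difference (113 without metformin PBS 4, 262 without vehicle PBS 4) and 1255 to 2000 and 5 to 6 for metformin PM against vehicle PBS. Maf did not pass the filter without vehicle PBS 2 or 3, with the stricter filter or with only the groups compared. No pairing of samples by the replicate numbers of the titles was seen (median r of deviations −0.00164 over 16 same-numbered pairs, 1 over 0.1). With 3 or 4 libraries a group, that check has little power and cannot exclude a shared batch. With the replicate block, 535 genes were called for metformin in PM mice, against 820 in the main fit. Batf3 for PM in metformin mice (edgeR adjusted p = 0.0599) and Spi1 for metformin in PM mice (edgeR adjusted p = 0.136) lost their calls with it.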
